A study of Homo sapiens with 4 samples.

Results

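Cytosolic ribosomal protein genes were taken from the array design by name. They were all genes called RPL or RPS followed by a number, with or without a closing A, X or L, and the P stalk genes RPLP0, RPLP1 and RPLP2. RPSA belonged to the rule, but no probe carried that name. The rule found 82 genes with 199 of the 41000 probes, out of 30982 gene names: 48 of the large subunit, 31 of the small subunit and 3 of the P stalk. Control signal was well above background on all 4 arrays for 81 of the 82 genes. The exception was RPL3L, the paralog of RPL3 that is known from striated muscle, whose control signals were 38, 20, 56.5 and 52.5 and which was left without a ratio.

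FaDu and HSC3 cells received miR-489 or miR-504 by transfection, and at 72 h each was set against cells of its own line that had received a control miRNA. FaDu is an established line from a human hypopharyngeal squamous cell carcinoma, and HSC3 is an established line from a squamous cell carcinoma of the tongue. Each array was hybridised with Cy5-labelled RNA of the miRNA transfectant and Cy3-labelled RNA of the control transfectant. There was 1 array per condition, 4 in all, on 1 slide and in 1 scan, and the dyes were not swapped. The labels name neither the control sequence nor the genotype of the cells, and they do not say whether the 2 control hybridisations of a line used separate RNA. Each line stands for 1 tumour, and p-values below measure the spread between single arrays of different lines or miRNAs. Bulk RNA was used, so fewer expressing cells and less RNA per cell cannot be told apart. Of the squamous epithelium markers, KRT5, KRT14, KRT17, TP63 (TP73L on the array) and EPCAM (TACSTD1) were well above background on all arrays, and KRT6A was not found under that name. The leukocyte markers PTPRC and CD3E, the fibroblast markers COL1A2 and COL3A1 and the endothelial markers PECAM1 and CDH5 were not well above background on any array. COL1A1 passed on the HSC3 arrays, VWF on 1 FaDu array and CD68 on all 4 arrays.

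The ribosome is built of a large and a small subunit, each an rRNA core covered by proteins, most of which are needed in equal numbers. The mRNAs of these proteins are among the most abundant of a growing cell, and most begin with a C followed by a run of pyrimidines, the 5′ terminal oligopyrimidine (TOP) tract, through which mTOR signalling sets their translation. A microRNA guides repression of mRNAs that pair with its seed, bases 2 to 8. The mature sequences that RefSeq holds for both microRNAs (GRCh38.p14) are shown because the main contrast is between them, with the seed in capitals. The labels do not give the arm. The seeds are different.
hsa-miR-489-3p (chr7:93483947-93483968, minus strand): gUGACAUCacauauacggcagc
hsa-miR-504-5p (chrX:138667760-138667781, minus strand): aGACCCUGgucugcacucuauc

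A promoter entry of RefSeq was found for 65 of the 82 genes. In 45 of the 65 (69.2%), at least 1 annotated transcription start was a C followed by 4 bases that were each C or T, read on the transcript strand and at the start only. The share over all 27305 genes of the table was 5.14%, and per start it was 55.6% of 81 for the ribosomal protein genes and 4.07% of 35116 for the table. Of the paralogs with "L" in the name, 1 of 5 had the tract. Of the other mRNAs listed as TOP mRNAs, such as elongation factors, 8 of 9 had it, against 4 of 17 ribosome biogenesis genes and 6 of 70 mitochondrial ribosomal protein genes. The starts of genes that stood apart in the results below, with and without the tract, are printed with 25 bases before the start and the first 5 transcribed bases, in capitals where those 5 form the tract. RPLP0 and RPL29 are included as genes whose ratio was high and alike on all arrays.
RPS14 (chr5:150449735-150449764, minus strand): ccccgtcgctccgccccctcccactCTCTC
RPS12 (chr6:132814544-132814573, plus strand): ataccggcatgcgtgcggatgaggcCTCTT
RPS3A (chr4:151099603-151099632, plus strand): agttctcgcgcgactcccacttccgCCCTT
RPS3 (chr11:75399493-75399522, plus strand): actcacttccgcccgcgagccacttCCTTT
RPL17 (chr18:49492461-49492490, minus strand): caccgctcttcctctttccctaagcagcct
RPL3 (chr22:39319619-39319648, minus strand): tagcggacccgtaaggccgaccggcctcta
RPL22L1 (chr3:170870191-170870220, minus strand): atgcagaccgcgcggccgtagcttcCTCTC
RPL7L1 (chr6:42879591-42879620, plus strand): acagccgcgccggaagtgcggcgccgtagc
RPLP0 (chr12:120201107-120201136, minus strand): taaaaggcacgcgcgggcgcgaggcCCTTC
RPL29 (chr3:51995891-51995920, minus strand): tcccgtgctgcaccgcagcccctttCTCTT

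Values are log2 ratios of miRNA transfectant over control, from median spot signals after subtraction of the local background, centred on each array. A gene took its brightest probe. Ribosomal protein genes differed from each other no more than all genes did, and differed less between arrays. The SD between the 81 genes of their mean over the arrays was 0.49, and the median SD of a gene across the arrays was 0.06. The median distance between the highest and the lowest array of a gene was 0.14. For all 15725 genes measured, these were 0.53, 0.16 and 0.36. The distance was under 0.2 for 60 of the 81 genes (74.1%, against 20.5% of all genes) and over 0.5 for 7 (8.64%, against 31.4%). Among the 1496 other genes in the top 10% by control signal, a class that holds 77 of the 81, the SD between genes was 0.61. Their median distance was 0.21, with 46.3% under 0.2 and 11.4% over 0.5, so the share over 0.5 was near that of the family.

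**Figure D1:**
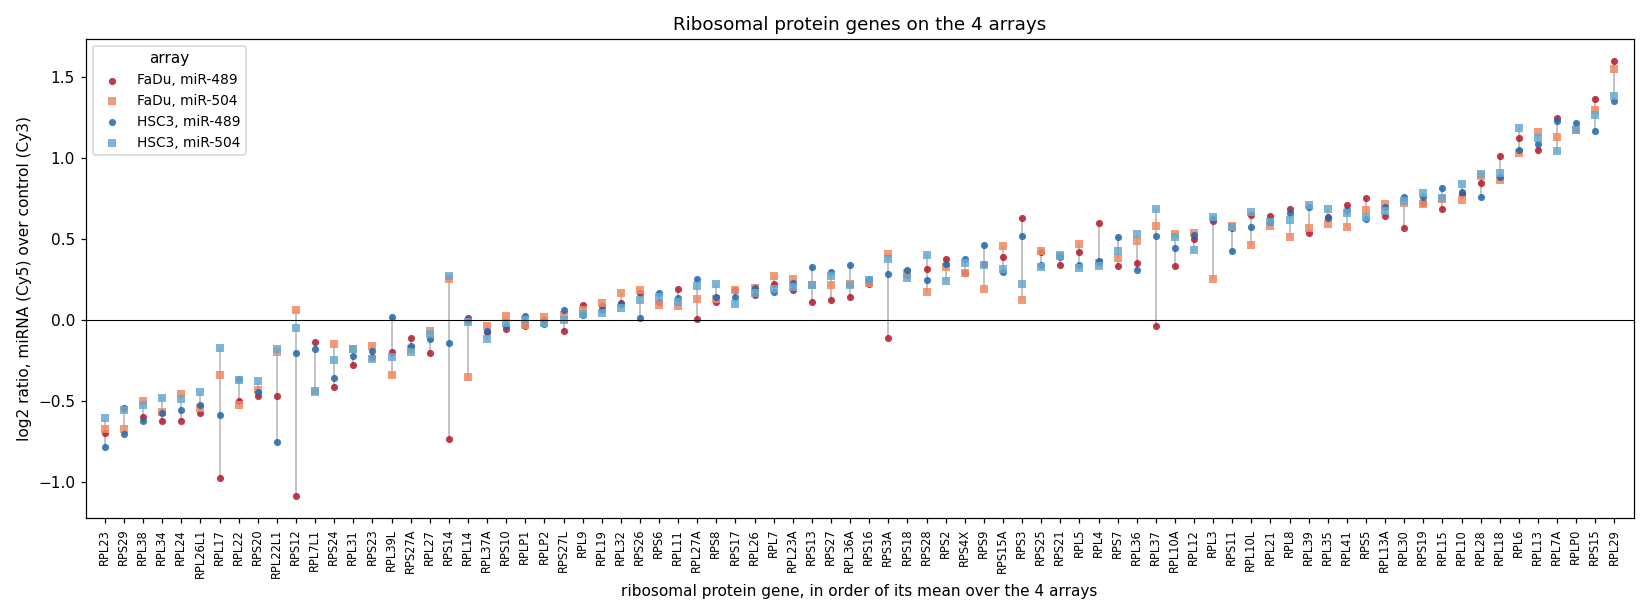
Log2 ratio of miRNA transfectant over control (y axis) for 80 of the 81 ribosomal protein genes (x axis, in order of their mean), 1 point per array and gene, joined by a line from the lowest to the highest array. Most genes have their 4 points within 0.2 of each other, and RPS12, RPS14, RPL17 and RPL37 have a FaDu miR-489 point well below the other points.

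The median of the 81 genes was 0.20 on the FaDu miR-489 array, 0.23 on the FaDu miR-504 array, 0.30 on the HSC3 miR-489 array and 0.25 on the HSC3 miR-504 array, against 0.02 for all genes on each array. For the 1496 other genes in the top 10% by control signal it was 0.14, 0.06, 0.13 and 0.11 in that order. The medians of the 81 genes had no stable direction. With the log10 ratios deposited by the authors, which carry a LOWESS dye normalisation, they were −0.24, −0.18, −0.09 and −0.16. With loess they were −0.14, −0.02, 0.00 and −0.06, and with total-signal normalisation −0.01, 0.06, 0.12 and 0.06. The last of these also put the median of all genes between −0.19 and −0.15, so that the family lay above it by 0.17 to 0.27. The distance between the arrays of a gene was much less sensitive, with a median between 0.14 and 0.18 under the other background and scaling settings.

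**Figure D2:**
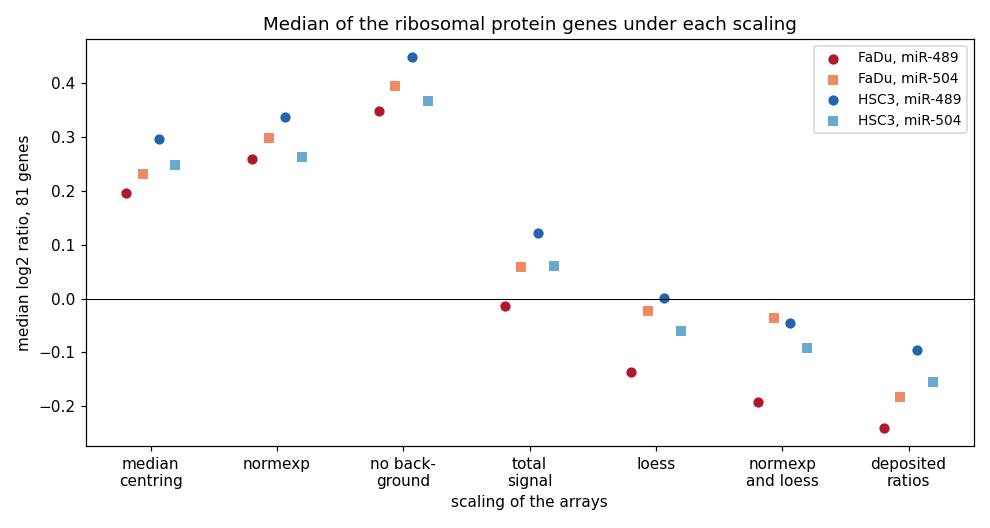
Median log2 ratio of the 81 ribosomal protein genes (y axis) on each of the 4 arrays (points) under the main scaling and 6 others (x axis). All 4 medians lie above 0 with median centring and below 0 with the deposited ratios.

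Near the top of the order were RPL29, RPS15, RPLP0 and RPL7A. RPL29, a protein of the outer face of the large subunit, had log2 ratios of 1.60, 1.55, 1.35 and 1.38 on the 4 arrays, in the order used throughout (FaDu with miR-489, FaDu with miR-504, then HSC3 with each in turn). RPS15, at the head of the small subunit, had 1.37, 1.29, 1.17 and 1.27. On every array these genes were at least 2-fold above control. RPLP0, the stalk base that holds RPLP1 and RPLP2 and is often used as a reference gene, had 1.18, 1.17, 1.22 and 1.18, a distance of 0.05 between arrays. RPLP1 had −0.04, −0.03, 0.03 and 0.00, and RPLP2 had 0.00, 0.02, −0.02 and −0.02. All 3 measured RPLP0 probes were high, with means over the arrays of 1.19, 1.57 and 1.09, and the second RPLP1 probe had a mean of 0.15. RPL7A, RPL13 and RPL6 were also at least 2-fold above control on every array, and RPL18 on the FaDu miR-489 array only, at 1.01. Other probes of these genes were lower, with lowest means of 0.66 for RPL7A, 0.09 for RPL13, 0.92 for RPL6 and 0.32 for RPL18.

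At the bottom were RPL23, RPS29, RPL38, RPL34 and RPL24. RPL23, known for binding MDM2 outside the ribosome, had −0.70, −0.67, −0.78 and −0.61 on its brightest probe. Its other measured probes had means over the arrays of −0.08 and 0.16, so its place at the bottom rests on that probe. RPS29, a small zinc-binding protein of the small subunit, had −0.54, −0.67, −0.70 and −0.55. The other 3 lay between −0.45 and −0.62. All measured probes of RPS29, RPL34 and RPL24 had means below 0, from −0.65 to −0.28. RPS12 on the FaDu miR-489 array was the single case of a measured gene at least 2-fold below control, of 81 genes on 4 arrays.

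At least 2-fold higher than control were 8, 7, 7 and 7 of the 81 genes, against 3.19%, 2.59%, 3.01% and 2.14% of all genes. At least 2-fold lower were 1, 0, 0 and 0, against 6.61%, 4.55%, 6% and 3.82% of all genes. In limma fits with the lines as replicates of a miRNA, miR-489 arrays differed from control at an adjusted p of 0.05 for 39 genes upwards and 13 downwards, where 30.1% and 27.8% of all genes passed. For miR-504 it was 40 upwards and 9 downwards, where 26.7% and 24.3% passed, and the sum of 49 fell to 20 without the HSC3 miR-504 array and to 22 without the FaDu miR-504 array. The split turned with the scaling. With the deposited ratios it was 16 upwards and 35 downwards for miR-489 and 17 and 30 for miR-504. With loess it was 22 and 24, and 23 and 22. A dye effect of a probe cannot be told apart from a change in these counts. GAPDH, a glycolytic enzyme, had ratios of 1.03, 0.83, 0.92 and 0.86, and ACTB, cytoplasmic actin, had 0.96, 0.80, 1.10 and 1.02.

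Probes for the same gene often had different ratios. For 56 genes with at least 2 measured probes (171 probes), the mean ratios of a gene's probes spanned a median of 0.37, against 0.15 for a probe across the arrays. The span between probes was the larger one in 42 of the 56 genes. It was over 0.5 in 21 genes and over 1 in 4, RPS2, RPS26, RPL15 and RPL13, the first 3 of which are named after their values were seen. In the difference between the miRNAs the same probes spanned a median of 0.07 in FaDu and 0.08 in HSC3. Some genes were exceptions, and in FaDu the span was over 0.5 for RPS2, RPL28, RPS26, RPL15, RPL13 and RPL22. RPS2 spanned 1.19 in FaDu and 0.56 in HSC3. RPL28, also named after its values were seen, spanned 0.98 and 1.74. Its dimmer probe, with control signals of 128 to 197, differed by 0.94 and 1.60, and its brightest by −0.04 and −0.14.

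The contrast between the miRNAs compares arrays with the same dye layout, so that a constant offset of a probe drops out. The ratio with miR-489 minus the ratio with miR-504 was lower than 0 in both lines for 28 of the 81 genes and higher in both for 16, against 4696 and 5541 of all 15725 genes. It had a median of −0.03 in FaDu and 0.00 in HSC3 over the 81 genes, with SDs of 0.24 and 0.13. Over all genes the medians were 0.02 and 0.02, with SDs of 0.41 and 0.36. For 67 of the 81 genes (82.7%) the difference was within 0.2 of 0 in both lines, against 33.7% of all genes. In limma, 0 of the 81 genes passed between the miRNAs, where 1.09% of all genes did, and 5 (6.17%) had an unadjusted p under 0.05, against 18.0% of all genes. With the cell line as a block the count was 0 and the unadjusted count 6. The interaction of miRNA and line has no test with 1 array per condition.

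**Figure D3:**
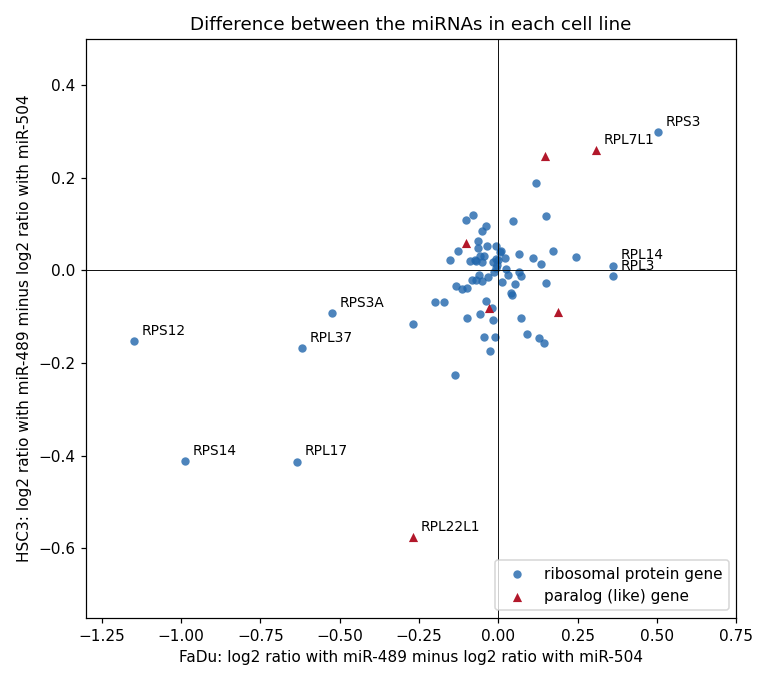
Log2 ratio with miR-489 minus log2 ratio with miR-504 in FaDu (x axis) and in HSC3 (y axis), 1 point for each of 80 ribosomal protein genes, with paralogs as triangles and genes at least 0.3 from 0 in either line named. Most points lie near 0, and RPS14, RPL17, RPS12, RPL37 and RPS3A are lower with miR-489, further so in FaDu.

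A few genes stood apart in that contrast, and none passed the test. RPS14, the small subunit protein whose loss on chromosome 5q is known from 5q- syndrome, had log2 ratios of −0.73, 0.26, −0.14 and 0.27. Both miR-489 arrays lay below both miR-504 arrays. The mean difference was −0.70 ± 0.21 (SE, limma adjusted p = 0.188). Its 3 probes gave −0.99 to −0.92 in FaDu and −0.42 to −0.31 in HSC3. The Cy5 signals of the RPS14 probe were 58721, 104576, 108018 and 125634, and its Cy3 signals 65179, 55776, 79442 and 76433.

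RPS12, a small subunit protein with 1 probe here, had ratios of −1.09, 0.06, −0.20 and −0.05. The difference lay almost wholly in FaDu, where it was −1.15, against −0.15 in HSC3 (limma adjusted p = 0.326 over both lines). Both channels of the FaDu arrays took part, since the Cy5 signal was 20547 with miR-489 and 34248 with miR-504, and the Cy3 signal 29170 and 20907. On the other 3 arrays its ratio lay between −0.20 and 0.06.

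RPL17, a protein at the exit of the peptide tunnel, had −0.97, −0.34, −0.58 and −0.17. It was lower with miR-489 in both lines, by a mean of −0.52 ± 0.17 (SE, limma adjusted p = 0.205), and its 3 probes gave −0.73 to −0.63 in FaDu and −0.41 to −0.33 in HSC3. RPL37, a small zinc-binding protein of the large subunit, had −0.04, 0.58, 0.52 and 0.69. Only the FaDu miR-489 array was low. Its 2 probes gave −0.65 and −0.62 in FaDu and −0.17 and −0.16 in HSC3 (limma adjusted p = 0.381).

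RPS3A, named after its values were seen, had −0.11, 0.41, 0.29 and 0.38. It repeated the pattern of RPL37, with a low FaDu miR-489 array alone. All of its 6 probes were lower with miR-489, by −0.58 to −0.45 in FaDu and −0.14 to −0.07 in HSC3. RPL14, also named afterwards, differed by the FaDu miR-504 array on its brightest probe, with 0.01, −0.35, 0.00 and −0.01. Its 3 probes gave 0.35 to 0.40 in FaDu and 0.01 to 0.24 in HSC3. The dimmest had 0.18, −0.17, 0.20 and −0.04, with both miR-504 values below both miR-489 values. A single low array therefore depended on the probe.

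RPS3, a small subunit protein at the mRNA entry that also acts in DNA repair, was the gene with the smallest p and went the other way. Its ratios were 0.63, 0.13, 0.52 and 0.22, with both miR-489 arrays above both miR-504 arrays. The mean difference was 0.40 ± 0.11 (SE, limma adjusted p = 0.176). Its 2 probes gave 0.37 and 0.50 in FaDu and 0.30 and 0.38 in HSC3. RPL3, at the peptidyl transferase centre, was higher with miR-489 in FaDu alone. Its ratios were 0.61, 0.25, 0.62 and 0.64, and its 3 probes gave 0.34 to 0.37 in FaDu and −0.04 to 0.03 in HSC3.

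**Figure D4:**
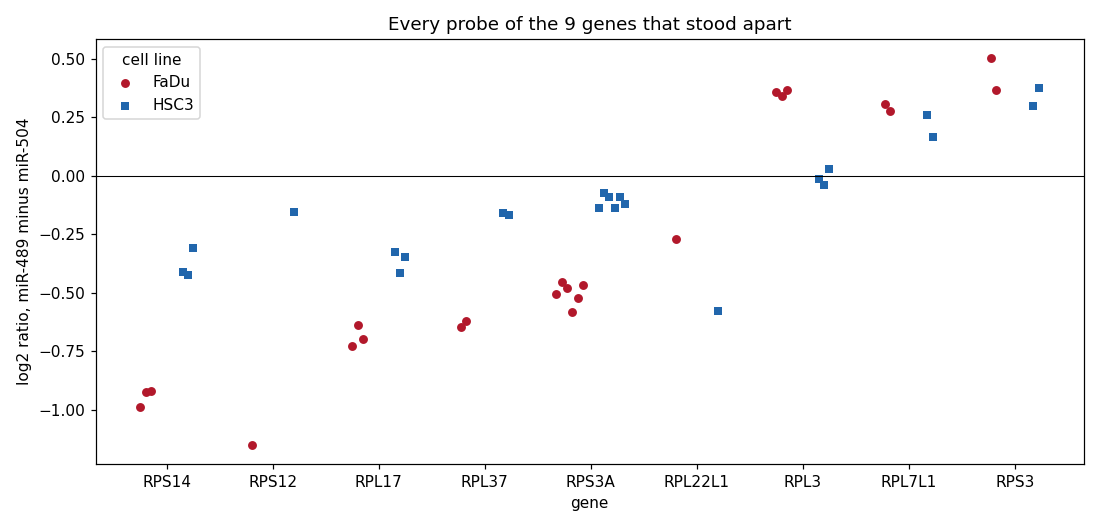
Log2 ratio with miR-489 minus log2 ratio with miR-504 (y axis) for every measured probe of 9 genes (x axis), circles for FaDu and squares for HSC3. Probes of a gene lie close together within a line, as the 6 RPS3A probes do between −0.58 and −0.45 in FaDu.

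Over 7 background and scaling settings, the main one included, the FaDu difference of RPS14 stayed between −1.08 and −0.96. That of RPS12 stayed between −1.24 and −1.15, and that of RPS3 between 0.39 and 0.50. The direction in either line held under all of these settings for RPS14, RPL17, RPS12, RPL37, RPS3A, RPL22L1, RPS3 and RPL7L1, whereas the HSC3 difference of RPL3 lay on both sides of 0, from −0.01 to 0.03. The FaDu miR-489 array carried most of the large distances. Without it 1 of the 81 genes, RPL22L1, had a distance over 0.5 between arrays, in place of 7, and without any other array 5 to 7 had.

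Among the paralogs, RPL22L1 and RPL7L1 had the largest differences between the miRNAs, in opposite directions, and neither passed the test. RPL22L1, the paralog of RPL22 that can replace it in the ribosome, had −0.47, −0.20, −0.75 and −0.18. It was lower with miR-489 in both lines, further in HSC3 (−0.57) than in FaDu (−0.27), with a limma adjusted p of 0.211. Its parent RPL22 had −0.50, −0.52, −0.36 and −0.37, differences of 0.02 and 0.00. The 4 RPL22 probes ranged from −0.35 to 0.16 in FaDu and from 0.00 to 0.23 in HSC3. RPL7L1, a paralog of RPL7 that works in ribosome assembly, had −0.13, −0.44, −0.18 and −0.44 and was higher with miR-489 in both lines (0.31 in FaDu, 0.26 in HSC3, limma adjusted p = 0.255). RPL7 had 0.22, 0.27, 0.17 and 0.20. The difference between paralog and parent was not tested. RPL10L, RPL26L1, RPL39L and RPS27L differed between the miRNAs by −0.10 to 0.25. RPL10L and RPL39L are known chiefly from the testis, and RPS27L is known as a p53 target. The Cy3 signals were 17512 to 19387 for the RPL10L probe and 786 to 2155.5 for the RPL39L probe. Whether the RPL10L probe also binds RNA of RPL10 was not tested.

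Genes of either direction were found with the tract and without it. The 45 measured genes with the tract had a median difference between the miRNAs of −0.04 in FaDu and 0.00 in HSC3, and the 20 with an entry and no tract had −0.01 and −0.02. At the annotated starts printed above, RPS14, RPS12, RPS3A, RPL22L1 and RPS3 have it, and RPL17, RPL3 and RPL7L1 do not. RPL3 misses it by the last base alone, and RPL17 has a run of pyrimidines shortly before its annotated start. Starts a few bases away were not searched, so a gene without the tract here may still have a TOP mRNA.

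Other genes of the translation machinery were described with the same contrast. FAU, which encodes a ribosomal protein fused to a ubiquitin-like sequence and falls outside the name rule, differed by 0.01 in FaDu and −0.06 in HSC3. RPS27A, a ubiquitin fusion and a member by name, differed by 0.06 and 0.04. Of 14 other TOP mRNAs, 8 were higher with miR-489 in both lines and 3 lower, with medians of 0.18 in FaDu and 0.11 in HSC3. Over all 15725 genes, 5541 were higher and 4696 lower in both lines. The elongation factor genes EEF1A1, EEF1B2, EEF1D and EEF1G were higher by 0.13 to 0.26 in FaDu and 0.10 to 0.14 in HSC3, and EEF2 had 0.19 in FaDu and −0.09 in HSC3. From the same list NAP1L1, a histone chaperone, was lower by −1.39 and −0.56. Of 20 ribosome biogenesis genes, 12 were higher in both lines and 2 lower, with medians of 0.16 and 0.10. NOLC1, a nucleolar chaperone of snoRNPs, was higher by 0.68 and 0.46. The single genes of these lists are named after their values were seen. Of 75 mitochondrial ribosomal protein genes, 32 were higher in both lines and 28 lower, with medians of 0.06 and −0.03. In each of these lists, 0 genes passed the test between the miRNAs in limma.

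Between the lines, the ratios of the HSC3 arrays and the FaDu arrays were compared with the miRNAs as replicates. In limma 0 of the 81 genes passed, where 0% of all genes did, and 0 had an unadjusted p under 0.05, against 3.19% of all genes. Of the 5 with the smallest p, RPL29 differed by −0.21 (HSC3 minus FaDu), RPL37 by 0.33, RPL27A by 0.16, RPL39 by 0.15 and RPL22 by 0.15. The value of RPL37 came from the FaDu miR-489 array described above. The second RPL39 probe had 0.77, 0.67, 0.72 and 0.80, so that the lines overlapped. The next brightest RPL22 probe also overlapped, with −0.49, −0.65, −0.57 and −0.61, whereas a dimmer one, with 0.29, 0.34, 0.44 and 0.38, did not.

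The control channel alone gives the level in cells that received neither microRNA, for 1 probe at a time. On the log2 scale of the centred Cy3 signal, HSC3 minus FaDu had a median of −0.13 over the 81 genes, with quartiles of −0.31 and 0.02 and an SD of 0.35. The SD over all genes was 0.95. For 36 genes both HSC3 values lay below both FaDu values and for 12 above, against 42.1% and 34% of all genes. Whether a line's 2 values are separate samples is not labelled, so no test was made. A difference of at least 2-fold was seen for 3 of the 81 (3.70%, against 21.8% of all genes).

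These 3 were RPL7L1, RPL32 and RPL39L. RPL7L1 had centred log2 Cy3 values of 3.30 and 3.40 in FaDu and 1.89 and 1.80 in HSC3, a difference of −1.50, and its second probe gave −1.58. RPL32, a protein of the large subunit, had 7.93 and 7.77 against 6.76 and 6.58 on its single probe, a difference of −1.18. RPL39L went the other way, with 1.47 and 1.52 in FaDu and 2.65 and 2.58 in HSC3, a difference of 1.12. In each the lines were apart by far more than the values within a line. RPL39, its parent gene and a small protein of the exit tunnel, was lower in HSC3 by −0.64. RPL22L1 (−0.83) and RPS15A (−0.80) followed. The 3 RPS15A probes ranged from −0.80 to −0.33. Of the 5 largest differences, 3 belonged to paralogs.

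**Figure D5:**
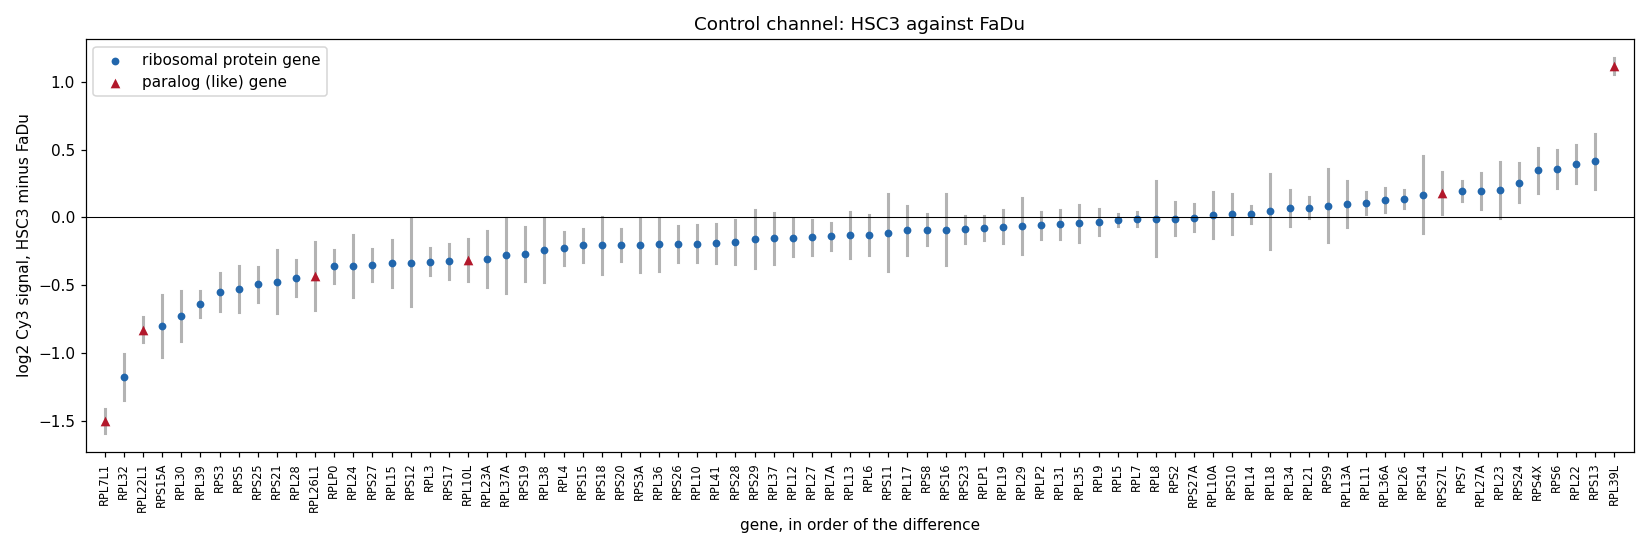
Log2 Cy3 signal of HSC3 minus FaDu control cells (y axis) for 80 of the 81 ribosomal protein genes (x axis, in order), points for the mean and bars from the lowest to the highest of the 4 differences between single arrays, which are not independent. RPL7L1 and RPL32 lie lowest at −1.50 and −1.18, and RPL39L highest at 1.12.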

How the data were processed

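RNA of FaDu and HSC3 cells was read on 4 Agilent 2-colour arrays, 1 per condition (control miRNA in Cy3, miR-489 or miR-504 in Cy5). The authors deposited Feature Extraction 9.5.3.1 output with spot and local background intensity, not normalised, and log10 ratios after a LOWESS dye normalisation. The deposited value table held the same log10 ratios, differing by 0 at most. Following the paper's methods, log2 ratios were taken from median intensities minus background and normalised globally; those methods name other scanner software. In all, 118 to 137 outlier spots per array were left out, no spot was saturated (0), and 0.45 to 0.65 was removed as the median log2 ratio of probes well above background in both channels. Replicate spots were averaged (SD 0.0629 to 0.0732, 264 probes with at least 5 spots), which is technical error only. The number of arrays limits the precision. Genes needed Cy3 well above background on 4 arrays. limma 3.58.1 (R 4.3.3) was fitted to 20914 probes with 2 residual and 3.20 prior degrees of freedom, with Benjamini-Hochberg adjustment over all probes and counts read at 1 probe per gene. It was also run on simulated data, where each added change was the same in both lines. Changes in a single line were therefore not covered.

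The members and gene lists were chosen with earlier results of these data known. Named genes were the stalk genes, RPS27A, the paralogs with their parents, the 5 highest and 5 lowest by mean ratio, the 5 smallest p per contrast, those at least 2-fold from control on any array and the 5 largest Cy3 differences between lines; others are named as chosen afterwards. Alternatives were normexp (offset 50), no background subtraction, loess (span 0.3), normexp with loess, total signal, the deposited ratios and table, the mean of all probes, other filters, blocks and leaving out an array. Sequences came from RefSeq tables (GRCh38.p14) by symbol. Ribosomal protein genes have many processed pseudogenes, and cross-hybridisation of the probes was not tested. Single values of a few genes are not reported here, and such genes are left out of the plots that name every gene.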

Additional observations from a re-analysis of the deposited data

Results flagged for a closer look

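On their brightest probes, RPLP1 and RPLP2, the paired stalk proteins, had ratios of opposite sign on every array. RPLP1 was below control on both FaDu arrays and at or above it on both HSC3 arrays, HSC3 minus FaDu being 0.05 (0.0479). RPLP2 was the reverse, with −0.03 (−0.0314). Neither passed the limma test between the lines. All of these ratios were smaller than the SD between replicate spots (0.0629 to 0.0732). The second RPLP1 probe was above control on all 4 arrays, at 0.13, 0.10, 0.25 and 0.13.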

How the results depend on the processing

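The median ratio of the family depended on scaling, and the cause was not tested. With the deposited log10 ratios, and the same with the deposited value table, the medians were −0.239 and −0.183 for FaDu with miR-489 and miR-504, and −0.0946 and −0.156 for HSC3. In that order they were −0.137, −0.0226, 0.0015 and −0.0599 with loess, −0.193, −0.037, −0.0461 and −0.0924 with normexp and loess, and −0.0132, 0.0595, 0.121 and 0.0608 with total-signal normalisation. Without background subtraction they were 0.35, 0.40, 0.45 and 0.37, and normexp alone moved the FaDu miR-504 median to 0.30. The mean of all probes and the other filters moved no median by more than the spot SD. Genes called against control for miR-489 numbered 52, and 39 to 47 with 1 array left out. For miR-504 they numbered 49, 32 with no filter on dim probes, and 20 to 48 with 1 array left out, lowest without the HSC3 miR-504 array (20) and without the FaDu miR-504 array (22), where the lone array is assumed to vary like the others. Between the miRNAs and between the lines the count stayed 0 under every alternative, with unadjusted counts of 1 to 9 and of 0 to 3. With the cell line or the miRNA as a block both counts were 0. With 1 array per condition and no dye swap, the effect of a microRNA in a single line has no error estimate, and the offset of each probe cannot be told apart from a response to transfection that all arrays share.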
